A study of Mus musculus with 36 samples.

Results

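The change of gene expression in wild type mouse embryonic fibroblasts between time 0 and time 48 was measured on 8 of the 36 arrays of the study, chosen by their labels alone: 4 arrays labelled wild type time 48 and 4 labelled wild type time 0, each with replicates 1 to 4. The times carry no unit in the labels. Fibroblasts of both genotypes came from 13.5-day embryos of heterozygous PKBa intercrosses, with head and visceral organs taken off for genotyping, and were kept in DMEM with fetal calf serum for 15 to 20 passages. Values from wild type arrays at time 2 (2 arrays), time 6 (4) and time 24 (4), and from PKBa-/- arrays at times 48 and 0 (4 each), which lack Akt1, the gene of the kinase PKB alpha, are set beside them. The series is titled as DMEM-treated cells, while its protocol also describes an adipocyte induction medium with IBMX, dexamethasone and insulin; which of these media an array stands for is left unsaid in the labels, as is whether replicates were separate cultures, and the p-values therefore cover the spread from array to array, which may be technical. Of 12393 genes on the arrays, 7436 were bright enough to be tested.

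Fibroblasts make and organise the extracellular matrix, and in culture on plastic they carry actin stress fibres with smooth muscle type contractile proteins. The glucocorticoid receptor is a hormone-activated transcription factor whose targets in most cell types include feedback regulators and clock genes. ATF4 turns on amino acid synthesis, amino acid transport and tRNA charging when amino acids or protein folding fall short, SREBP2 turns on cholesterol synthesis when sterols are low, and Akt kinases keep FoxO factors out of the nucleus while growth factors are present.

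The array medians of the 8 arrays lay between 137.9 and 142.6 signal units. Akt1, the targeted gene of the study, gave a signal of 1279, 1395, 843.2 and 1030 in wild type time 48 arrays, against 1334, 1354, 902.5 and 1101 in wild type time 0 arrays, so it was read at both times. From time 0 to time 48 this probe set changed by -0.05 on the log2 scale. The second Akt1 probe set, with a mean signal of 779, changed by -0.61. Arrays of replicates 1 and 2, or of 3 and 4, of a time correlated at 0.982 to 0.9969, those of the other replicate pair at the same time at 0.956 on average and those of different times at 0.9356 on average. The replicates thus stood in array pairs, and counts are also given from a fit to pair averages with the replicate pair as a block. All 15 fibroblast markers on the array had a group mean over 100 signal units, and their summed signal was 46650 to 54580 at time 48 and 55800 to 59970 at time 0. Of these 15 markers 7 fell and 1 rose, with a median of -0.16; the lowest changes were those of Thy1 (-2.20) and S100a4 (-2.18), and the riser was Dcn, the proteoglycan decorin (0.65, limma adjusted p = 0.037). With blocked pair averages 5 fell and 2 rose. Of the markers of other cells, epithelial, adipocyte and skeletal muscle markers summed to 563.1 to 722.5, 569.3 to 819.2 and 637.2 to 863.7 at time 48 and to 580.8 to 607.4, 537.2 to 591.1 and 709.9 to 862.2 at time 0. Macrophage markers summed to 1041 to 1485 at time 48 and 1024 to 1094 at time 0, with 8 of 13 under 100 at both times. Of 11 endothelial markers, summed at 2561 to 2962 at time 48 and 1740 to 2154 at time 0, 7 were under 100 at both times, and Kdr, which encodes the VEGF receptor VEGFR2, rose. Mesothelial markers summed to 10970 to 12740 at time 48 and 9111 to 12270 at time 0; of 5 tested, Podxl (0.99), Gata6 (0.68) and Wt1 (0.55) rose and Upk3b (-0.40) fell. The part of these cell types in the results was not tested, and in bulk RNA fewer cells of a type and less RNA per cell cannot be told apart.

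Between time 0 and time 48, 2128 of the 7436 genes passed limma's moderated test at an adjusted p of 0.05, with 822 genes (11.1% of those tested) higher and 1306 (17.6%) lower at time 48. The list counts given below are to be read beside these shares of all tested genes. In the fit to blocked pair averages 595 genes (8.00%) were higher and 1149 (15.5%) lower, and 1591 genes passed in both fits with the same sign. Changes are log2 differences of signal + 32, time 48 minus time 0, given with their SE; their median over all tested genes was -0.018. The split of calls depended on the scaling: 38.6% of those passed were higher as deposited, and 51.8% of 2257 after quantile normalization. Changes of 2-fold or more were found for 68 genes that were higher (0.914%) and 79 that were lower (1.06%), and all 147 had the same sign in replicates 1 and 2 as in replicates 3 and 4. The sign agreed between the replicate pairs for 2116 of the genes that passed and differed for 12. Both counts of equal sign are descriptions, since a call on the mean of the 2 pairs favours genes of equal sign. The time 48 and time 0 arrays did not overlap for 1551 of the 2128, and for 1876 (25.2%) of all tested genes.

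**Figure D1:**
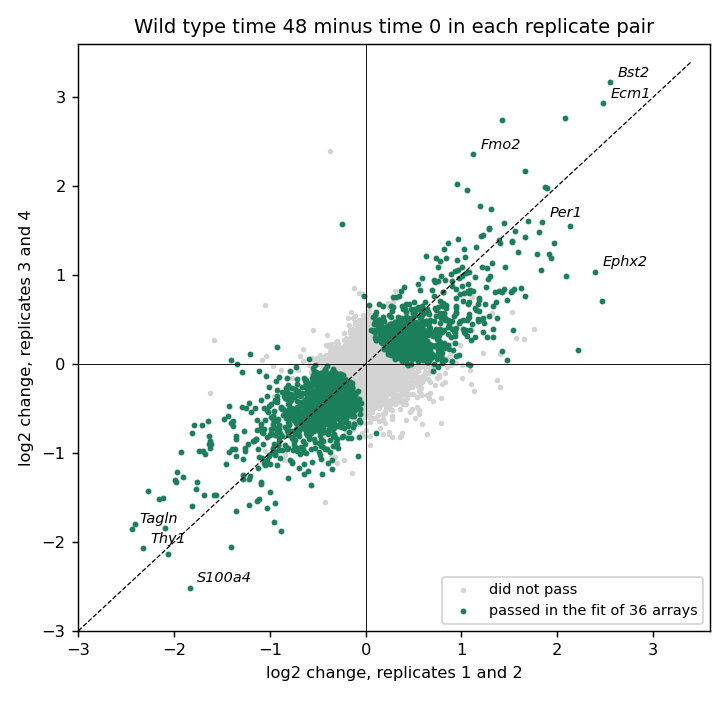
Log2 change of signal + 32, wild type time 48 minus time 0, in replicates 1 and 2 (x axis) and in replicates 3 and 4 (y axis), 1 point per tested gene; green points passed in the limma fit, the dashed line marks equal change. Bst2 changed by 2.55 and 3.17 in the pairs and Thy1 by -2.32 and -2.07, while Ephx2 changed more in replicates 1 and 2 and Fmo2 more in replicates 3 and 4.

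The genes that rose most encode an antiviral membrane protein, a matrix protein, a secreted lipocalin and a nucleoside enzyme. Bst2, the gene of tetherin, which holds budding enveloped viruses at the cell surface, gave 1178, 1154, 2279 and 1806 signal units in the time 48 arrays of replicates 1 to 4, against 176.4, 168.8, 205.1 and 188.3 in the time 0 arrays. Every time 48 array lay far above the highest time 0 array, with replicates 3 and 4 highest. The change was 2.86 ± 0.15 (limma adjusted p = 1.3e-15), or 7.27-fold. Ecm1, which encodes a secreted glycoprotein of the extracellular matrix, had 5057, 4966, 7299 and 7217 units at time 48 and 860.2, 883, 884.7 and 961.1 at time 0. Its groups were as clearly apart, at a far higher signal (2.71 ± 0.19, limma adjusted p = 9.6e-13). Pnp, purine nucleoside phosphorylase of the purine salvage pathway, was the most even of these genes across arrays, at 3343, 3490, 3761 and 3725 at time 48 and 894.9, 895.7, 920.5 and 931.7 at time 0. No array departed from its group, and the change was 1.94 ± 0.12 (limma adjusted p = 2.9e-14).

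Gas6, the ligand of the Axl, Tyro3 and Mertk receptors, had 6900, 6451, 4599 and 4797 units at time 48 and 1482, 1506, 1479 and 1700 at time 0. The groups did not overlap, and replicates 1 and 2 were the higher ones at time 48 (1.84 ± 0.10, limma adjusted p = 7.3e-15). The level of Axl itself, the receptor, was lower, at 1237, 1092, 1512 and 1683 units at time 48 and 1808, 1846, 1714 and 1956 at time 0. All time 48 arrays lay below all time 0 arrays, the nearest by a small margin (-0.42 ± 0.11, limma adjusted p = 0.0035), and in replicates 3 and 4 alone Axl did not pass. Tmem119, a membrane protein gene known from osteoblasts and microglia, had 3208, 3206, 3682 and 4099 units at time 48 and 988.6, 999, 819.2 and 859.5 at time 0. The 4 time 48 arrays formed a tight group well above time 0 (1.91 ± 0.12, limma adjusted p = 1.3e-13). Gbp2b, a guanylate-binding GTPase of the interferon-gamma response, gave 395.3, 388.6, 457.1 and 496.1 units at time 48 and 83.62, 84.68, 94.19 and 97.45 at time 0, a separation without overlap (1.93 ± 0.16). Its time 0 arrays lay under the signal limit of about 123, below which genes were not tested. Gbp2b was thus tested through the later wild type arrays in which it is high, and its change is a description.

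Some of the large rises were uneven between the replicate pairs. Fmo2, a flavin-containing monooxygenase, had 441, 511.6, 1350 and 1503 units at time 48 and 199.4, 203.2, 240.8 and 263.7 at time 0. All time 48 arrays were above all time 0 arrays, with replicates 3 and 4 far above replicates 1 and 2 (1.74 ± 0.28, limma adjusted p = 1.6e-05). Ephx2, the soluble epoxide hydrolase, stood the other way round, at 436.1, 542.5, 168.4 and 171.1 units at time 48 and 63.77, 69.68, 61.59 and 71 at time 0. Here replicates 1 and 2 were the high ones, again with no overlap between times (1.72 ± 0.19). All time 0 arrays of Ephx2 lay under the signal limit below which genes were not tested. Its PKBa-/- arrays averaged 73.22 units at time 0 and 72.77 at time 48, under the limit too. Like Gbp2b, Ephx2 was tested through the later wild type arrays in which it is high, and its change is a description. Rgs2, which speeds GTP hydrolysis by Gq proteins, had 350.8, 325, 663.8 and 530.1 units at time 48 and 114.1, 97.13, 54.35 and 69.49 at time 0. Replicates 3 and 4 held both the highest time 48 and the lowest time 0 arrays (2.08 ± 0.28, limma adjusted p = 8.9e-07).

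**Figure D2:**
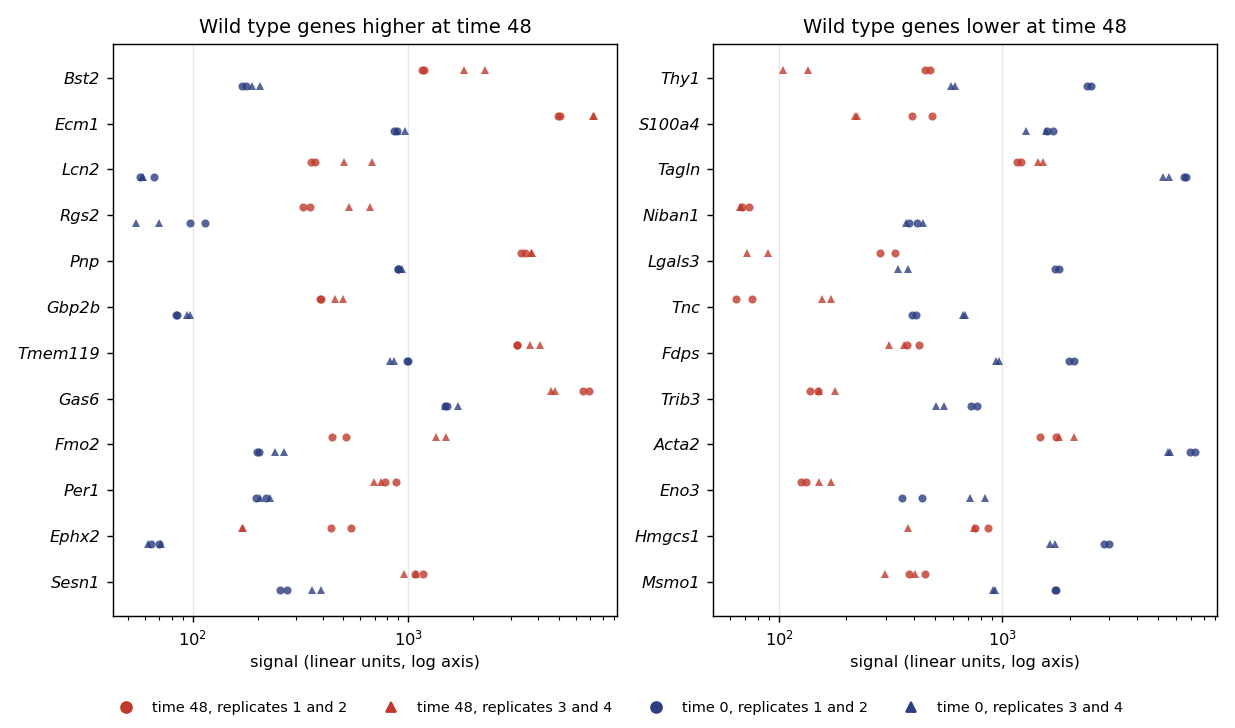
Signal (linear units, log axis) in each wild type array of the 12 genes with the highest and the 12 with the lowest change, time 48 in red and time 0 in blue, circles for replicates 1 and 2 and triangles for replicates 3 and 4. The groups do not overlap for any of the 24 genes; Thy1 and Lgals3 differ strongly between the replicate pairs at both times.

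Glucocorticoid targets and metallothioneins were higher at time 48 almost as a whole: 15 of 16 tested members rose and 0 fell, with a median change of 1.11, and the same number, 15, rose in the fit to blocked pair averages. Both counts include Lcn2, which was tested through the later wild type arrays in which it is high. Per1, a repressor of the circadian clock and an immediate glucocorticoid target, had 876.5, 776.5, 692.3 and 750.3 units at time 48 and 196.8, 218.5, 205.9 and 227.8 at time 0. Both groups were tight and far apart (1.72 ± 0.08, limma adjusted p = 1.6e-16). Fkbp5, a co-chaperone that lowers the hormone affinity of the glucocorticoid receptor, had 1200, 1219, 1209 and 1381 units at time 48 and 321.5, 322.1, 426.2 and 456.5 at time 0. The lowest time 48 array lay far above the highest time 0 array (1.65 ± 0.09, limma adjusted p = 1.2e-14). Tsc22d3, which encodes the anti-inflammatory protein GILZ, gave 991.3, 1070, 583.3 and 538.9 units at time 48 and 286.1, 266.5, 228.2 and 211.6 at time 0. It was high in all 4 time 48 arrays, most in replicates 1 and 2 (1.51 ± 0.16, limma adjusted p = 1.3e-08).

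Sgk1, a kinase that regulates ion channels and is close in structure to Akt, had 704.5, 570.6, 891 and 649.8 units at time 48 and 180.5, 177.5, 269.2 and 254.9 at time 0. Its groups did not overlap (1.55 ± 0.21, limma adjusted p = 9.4e-07). The metallothionein gene Mt2, whose product binds zinc and copper, had 3480, 2937, 5414 and 4731 units at time 48 and 1466, 1293, 1629 and 1303 at time 0. Replicates 3 and 4 were the highest at time 48 and all were above time 0 (1.49 ± 0.15, limma adjusted p = 5.4e-09). Lcn2, a lipocalin that binds bacterial iron carriers, also stands in the lists of iron genes and of NF-kB targets; it had 370.3, 353.8, 680.8 and 501.7 units at time 48 and 66.02, 56.81, 58.79 and 57.8 at time 0. The time 0 arrays were near the dim end of the array and the time 48 arrays clearly above it (2.43 ± 0.18). All time 0 arrays of Lcn2 lay under the signal limit below which genes were not tested. Its PKBa-/- arrays averaged 57.06 units at time 0 and 77.66 at time 48, under the limit too. Lcn2 was thus tested through the later wild type arrays in which it is high, and its change is a description. Other members that rose were Ddit4, an inhibitor of mTORC1 (1.15), Errfi1, a feedback inhibitor of the EGF receptor (1.06), and Dusp1, a phosphatase of MAP kinases (0.97). Angptl4, a lipoprotein lipase inhibitor and the member that did not pass, was at 0.18 ± 0.12 (limma adjusted p = 0.3) and is named because it was the exception.

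The glucocorticoid receptor binds a palindrome whose core, ACANNNTGT, was searched on both strands of RefSeq promoters (GRCm38.p6, 250 bases before to 50 after a gene's start). This motif was chosen after the values were seen. It was found in 4 of 13 members with a promoter entry (30.8%), in 6.85% of all 32851 promoters and in 4.74% of those of tested genes. Stretches of 60 bases before the gene start of members that rose are shown with the match in capitals, to place it beside the values of these genes: Lcn2 at chr2:32387857-32387916 (minus strand), Sgk1 at chr10:21978520-21978579 (plus strand) and Mt1 at chr8:94178972-94179031 (plus strand), the last a metallothionein gene outside the rule for named genes that changed by 1.39 ± 0.15. Promoters of each list were searched for that list's motif alone, and a match describes letters, not binding.
Lcn2: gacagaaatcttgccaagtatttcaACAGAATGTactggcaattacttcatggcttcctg
Sgk1: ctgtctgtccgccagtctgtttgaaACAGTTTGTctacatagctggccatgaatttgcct
Mt1: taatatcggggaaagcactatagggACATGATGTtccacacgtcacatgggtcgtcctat

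Genes of amino acid supply and the ATF4 response fell almost as completely. Of 33 tested members 31 fell and 1 rose, with a median change of -0.91, and 30 fell in the fit to blocked pair averages. Trib3, a pseudokinase induced by ATF4 that binds Akt, had 148.8, 137.8, 150.6 and 177 units at time 48 and 726.5, 768.5, 547.3 and 504.8 at time 0. Even the highest time 48 array was far below the lowest time 0 array (-1.83 ± 0.12, limma adjusted p = 4.6e-13). Of the serine synthesis enzymes, Psat1 had 565.1, 447.8, 586.8 and 492.3 units at time 48 and 1832, 1750, 1492 and 1466 at time 0. The arrays of the 2 times were again widely apart (-1.59 ± 0.15, limma adjusted p = 1.2e-09). Asns, which makes asparagine from aspartate, had 445.3, 394.1, 784.3 and 828.6 units at time 48 and 1633, 1731, 1729 and 1551 at time 0. The time 48 arrays of replicates 1 and 2 were lower than those of replicates 3 and 4, and all were below time 0 (-1.46 ± 0.14, limma adjusted p = 1.8e-09).

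Cth, the enzyme that makes cysteine from cystathionine, had 80.88, 62.55, 138.4 and 102.8 units at time 48 and 288, 291.2, 276.8 and 227.5 at time 0, without overlap (-1.27 ± 0.15, limma adjusted p = 1.1e-07). The glutathione-degrading enzyme gene Chac1 had 176.2, 196.9, 327.6 and 291.6 units at time 48 and 636.1, 634.9, 647.4 and 565.9 at time 0, with replicates 1 and 2 lowest at time 48 (-1.26 ± 0.13, limma adjusted p = 7.4e-09). Slc7a5, the light chain of the LAT1 transporter of large neutral amino acids, had 701.7, 686.9, 737.5 and 785 units at time 48 and 2272, 2162, 1372 and 1463 at time 0. Its level was even across arrays at time 48 and split by replicate pair at time 0 (-1.25 ± 0.13, limma adjusted p = 1e-08). The mRNA of Atf4 itself fell less, by 0.59 on the log2 scale (limma adjusted p = 0.00036). The member that rose was Cebpb (0.67 ± 0.17, limma adjusted p = 0.0029), a bZIP factor also listed among adipogenic regulators, and Slc38a2, an amino acid transporter, did not pass (-0.15 ± 0.10); these and Atf4 were picked after their values were seen.

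ATF4 with a C/EBP partner binds amino acid response elements. Their core TGATGNAA was found on either strand in the promoters of 11 of 27 members with an entry (40.7%), against 3.97% of all promoters and 2.46% of promoters of tested genes. The 4 members shown fell and hold the match before the gene start, in capitals; where it lies on the other strand the printed letters are its reverse complement. They are Asns at chr6:7693210-7693269 (minus strand), Chac1 at chr2:119351023-119351082 (plus strand), Aars at chr8:111033704-111033763 (plus strand) and Nupr1 at chr7:126625547-126625606 (minus strand). Aars, alanyl-tRNA synthetase (-1.19 ± 0.11), and Nupr1, a small stress-induced chromatin protein, are outside the rule for named genes and were taken for their match. Nupr1 had 334.6, 271.9, 367.6 and 325.3 units at time 48 and 706.5, 706.3, 749.2 and 559.9 at time 0.
Asns: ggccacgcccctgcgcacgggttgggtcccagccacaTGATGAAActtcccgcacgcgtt
Chac1: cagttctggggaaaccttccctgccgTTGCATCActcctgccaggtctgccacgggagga
Aars: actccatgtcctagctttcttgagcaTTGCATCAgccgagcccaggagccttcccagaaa
Nupr1: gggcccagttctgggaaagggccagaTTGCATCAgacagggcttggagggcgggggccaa

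Cholesterol synthesis genes fell together: 16 of 19 tested members fell, 0 rose and the median change was -0.88, with 16 lower in the fit to blocked pair averages too. Hmgcs1, HMG-CoA synthase, which opens the mevalonate pathway, had 862.8, 752.4, 746.3 and 378.7 units at time 48 and 2844, 2989, 1727 and 1640 at time 0. Replicate 4 was the lowest array at time 48, and no array overlapped the other time (-1.71 ± 0.20, limma adjusted p = 8.4e-08). Fdps, which makes farnesyl diphosphate, had 423.4, 373.7, 361.6 and 308.9 units at time 48 and 1989, 2098, 967.2 and 937.2 at time 0. As for Hmgcs1, replicates 1 and 2 were the higher arrays at time 0, while the time 48 arrays were closer together (-1.85 ± 0.18, limma adjusted p = 4.2e-09). Fdft1, squalene synthase, showed this too, with 258.7, 243.2, 254.6 and 242.9 units at time 48 and 921.5, 908.5, 521.4 and 521.1 at time 0 (-1.36 ± 0.16, limma adjusted p = 5.9e-08). Idi1, isopentenyl diphosphate isomerase (-1.59 ± 0.16), Msmo1, a sterol C4 demethylase (-1.65 ± 0.18), and Cyp51, lanosterol demethylase (-1.51 ± 0.20), fell by similar amounts.

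The sterol response element core TCACNCCA, bound by SREBP factors, was in 3 of 15 promoters of the list (20%), in 4.36% of all promoters and in 4.39% of those of tested genes. It is shown in capitals for the 2 members with the largest falls that hold it, Hmgcs1 at chr13:119690188-119690247 (plus strand) and Msmo1 at chr8:64733722-64733781 (minus strand).
Hmgcs1: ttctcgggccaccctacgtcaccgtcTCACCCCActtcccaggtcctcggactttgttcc
Msmo1: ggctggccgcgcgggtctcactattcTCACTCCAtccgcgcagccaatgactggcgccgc
Fatty acid synthesis and lipid storage genes moved less: of 17 tested, 8 fell and 1 rose, median -0.23. Elovl6, which lengthens saturated fatty acids, had 380.7, 426, 204.8 and 216 units at time 48 and 825.5, 791.9, 457.4 and 461.4 at time 0. Within each replicate pair the level was roughly alike in its 2 arrays and lower at time 48 (-0.99 ± 0.18, limma adjusted p = 0.00012). Gpam, the enzyme that starts triglyceride synthesis, was the member that rose (0.76 ± 0.15, limma adjusted p = 0.00015), with 1219, 1181, 1618 and 1294 units at time 48 and 615.9, 599.8, 951.3 and 961.6 at time 0.

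Contractile and actin cytoskeleton genes fell in 24 of 26 tested members and rose in 0, with a median of -0.55; the fit to blocked pair averages also gave 24. Tagln, the gene of the actin-binding protein transgelin, had 1165, 1210, 1440 and 1517 units at time 48 and 6636, 6513, 5582 and 5247 at time 0. The groups were tight and far apart, at 4.42-fold lower (-2.14 ± 0.11, limma adjusted p = 5.8e-16). Acta2, smooth muscle alpha-actin and a marker of myofibroblasts, had 1473, 1740, 2091 and 1798 units at time 48 and 6896, 7255, 5616 and 5544 at time 0. It fell in the same way (-1.82 ± 0.10, limma adjusted p = 8.2e-15). Tpm1, a tropomyosin that lies along actin filaments, had 2065, 1805, 2079 and 1841 units at time 48 and 6569, 6053, 5628 and 5359 at time 0 (-1.58 ± 0.13, limma adjusted p = 3.3e-11). Myl9, a regulatory myosin light chain, had 210.2, 200.1, 139.7 and 94.28 units at time 48 and 879.3, 935.8, 332.4 and 329.5 at time 0. Its time 0 level was much higher in replicates 1 and 2, and the fall was seen in both pairs (-1.64 ± 0.29, limma adjusted p = 7.1e-05).

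The other members fell by less, among them Tagln2 (-1.16 ± 0.12) and Cnn2, calponin 2 (-1.02 ± 0.16). The transcription factor Srf, which drives many of these genes, fell too, with 369.6, 399.9, 334 and 308 units at time 48 and 515.3, 542.1, 436.8 and 474.7 at time 0 (-0.45 ± 0.09, limma adjusted p = 0.00017). Its second probe set, with a mean signal of 353, changed by less, at -0.17. Of 13 tested YAP and SRF targets, 2 rose and 4 fell; the risers were the caveola genes Cavin2 (1.19 ± 0.18) and Cav1 (0.94 ± 0.12). Cav1, the main coat protein of caveolae, had 2892, 2785, 2009 and 2385 units at time 48 and 1407, 1251, 1323 and 1176 at time 0, without overlap.

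Srf binds the CArG box, which was found in 5 of 24 promoters of the contractile list (20.8%), in 1.63% of all promoters and in 1.57% of those of tested genes. The box is in capitals for the 2 members with the largest falls that hold it before the gene start, Myl9 at chr2:156775278-156775337 (plus strand) and Cnn2 at chr10:79988519-79988578 (plus strand).
Myl9: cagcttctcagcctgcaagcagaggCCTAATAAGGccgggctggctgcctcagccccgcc
Cnn2: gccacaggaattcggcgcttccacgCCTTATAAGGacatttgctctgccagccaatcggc

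Other genes with the largest falls encode surface and calcium-binding proteins. Thy1, a surface glycoprotein used as a fibroblast marker, had 474, 451.9, 134.2 and 103.5 units at time 48 and 2391, 2488, 610.6 and 587.1 at time 0. The level of replicates 1 and 2 stood far above that of replicates 3 and 4 at both times, and the fall was alike in both pairs (-2.20 ± 0.49, limma adjusted p = 0.001; 3.2e-08 with blocked pair averages). Lgals3, the beta-galactoside lectin galectin 3, had the same shape, with 328.6, 281.8, 89.49 and 71.99 units at time 48 and 1715, 1787, 378.9 and 339.1 at time 0 (-2.10 ± 0.52, limma adjusted p = 0.0027). S100a4, a calcium-binding protein of motile fibroblasts, had 481.5, 394.7, 222.1 and 219 units at time 48 and 1692, 1587, 1561 and 1278 at time 0. All time 48 arrays were low, replicates 3 and 4 most (-2.18 ± 0.21, limma adjusted p = 2.4e-09). Niban1, a stress-induced protein gene, had 68.11, 73.41, 66.74 and 67.73 units at time 48 and 379.9, 416.1, 371 and 443.1 at time 0. Its arrays were almost identical within each time (-2.10 ± 0.09, limma adjusted p = 1.8e-17). Eno3, the muscle isoform of the glycolytic enzyme enolase, had 131.8, 125.5, 170.7 and 151.3 units at time 48 and 353.8, 437.8, 833.7 and 712.7 at time 0 (-1.73 ± 0.18, limma adjusted p = 6.8e-09).

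Matrix genes split. Of 33 tested matrix glycoproteins and proteoglycans 7 rose and 8 fell, median -0.07, and of 28 collagen chains and processing enzymes 3 rose and 8 fell, median -0.15. Without replicate 3 of time 0, 1 collagen gene rose and 13 fell. Tnc, the glycoprotein tenascin C of healing and growing tissue, had 75.67, 64.18, 171.4 and 156.1 units at time 48 and averaged 536.9 ± 156 units at time 0 (SD, n = 4). It was low in every time 48 array (-1.97 ± 0.20, limma adjusted p = 7.3e-09). Vcan, the large hyaluronan-binding proteoglycan versican, had 847.1, 925.8, 1355 and 1274 units at time 48 and 433, 404.1, 492.6 and 543.7 at time 0, and rose (1.16 ± 0.14, limma adjusted p = 1.3e-07). Fmod, fibromodulin of collagen fibrils, fell (-1.28 ± 0.20), as did Thbs2, the matricellular protein thrombospondin 2 (-0.90 ± 0.18). Among fibrillar collagen genes Col1a1, a chain of type I collagen, had 9117, 8274, 6983 and 6936 units at time 48 and 12030, 12000, 9813 and 10640 at time 0. The fall was small beside the level but free of overlap (-0.51 ± 0.09, limma adjusted p = 0.00011). It was not seen in the second probe set of Col1a1, which had a mean signal of 2567 and changed by -0.04. Col16a1, a fibril-associated collagen, fell further (-0.93 ± 0.10, limma adjusted p = 9.2e-09). Col4a1, of basement membranes, rose (0.41 ± 0.14, limma adjusted p = 0.024); without replicate 4 of time 48, or without replicate 3 of time 0, it no longer passed, at 0.289 and 0.332.

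Of 25 matrix proteases and inhibitors 3 rose and 6 fell, median -0.15, against 11.1% of all tested genes higher and 17.6% lower. Adamts1, a protease of versican and aggrecan, had 520.9, 521.2, 712.4 and 710 units at time 48 and 209.2, 205.2, 216.9 and 267.4 at time 0 (1.33 ± 0.11, limma adjusted p = 9e-11). Adam12, a membrane metalloprotease, rose by 1.11 ± 0.17, while Mmp10, stromelysin 2, fell (-1.32 ± 0.24), as did Adamts5, an aggrecanase (-0.91 ± 0.11).

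How far the list counts held when arrays of a pair were not taken as independent differed between lists. With a random pair effect, 14 glucocorticoid targets rose and 29 ATF4 genes, 16 cholesterol synthesis genes and 17 contractile genes fell. With plain pair averages, these counts were 13, 22, 12 and 11. Of the fatty acid genes 4 fell with a random pair effect and 1 with pair averages, and of the collagen genes 5 and 3 fell and 0 rose under either.

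**Figure D3:**
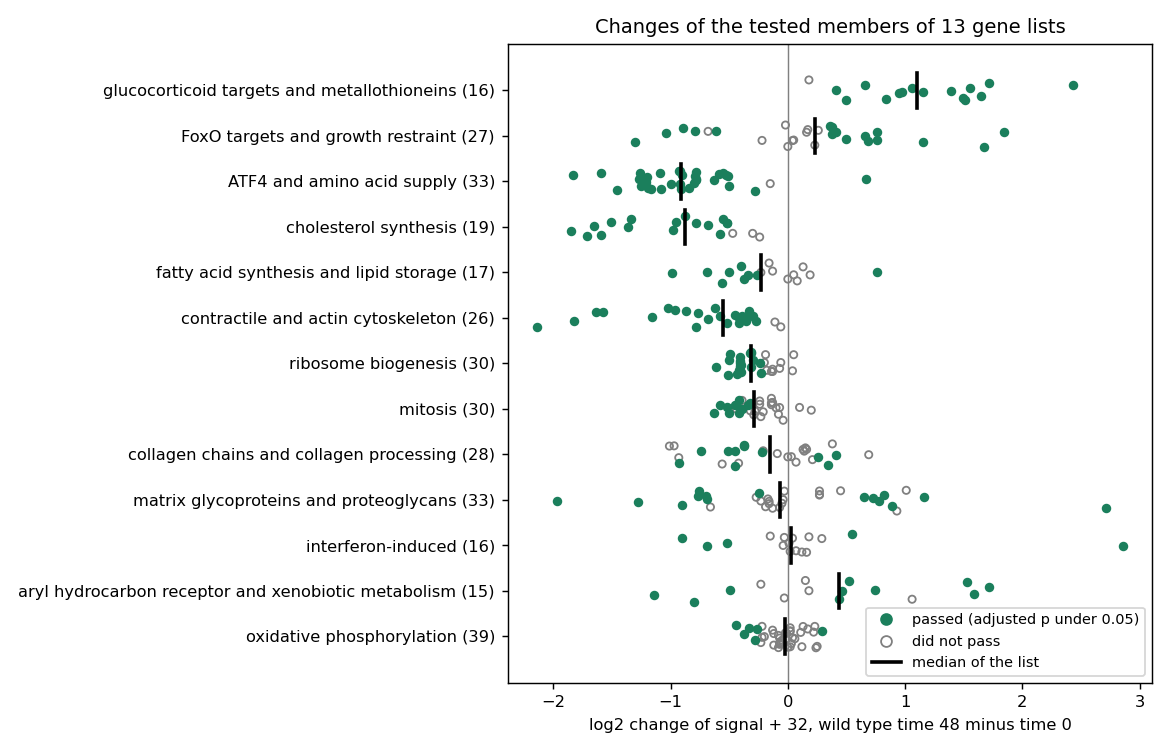
Log2 change of signal + 32, wild type time 48 minus time 0, of the tested members of 13 gene lists (number tested in brackets); filled points passed in the limma fit, open points did not, and the bar is the median. Glucocorticoid targets lie to the right of 0, ATF4, cholesterol synthesis and contractile genes to the left, and matrix genes on both sides.

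FoxO targets and growth restraint genes held 12 that rose and 5 that fell of 27 tested, with a median of 0.23; 7 rose with a random pair effect and 5 with plain pair averages. Sesn1, a sestrin that restrains mTORC1 and a p53 target as well, had 1079, 1173, 1082 and 957.2 units at time 48 and 274.7, 253.7, 359.3 and 392.4 at time 0. The groups were well apart (1.67 ± 0.12, limma adjusted p = 3.4e-12). Ccng2, an unusual cyclin of resting cells, had 790, 726, 717.9 and 864 units at time 48 and 378.2, 376, 504.8 and 534.8 at time 0 (0.76 ± 0.14, limma adjusted p = 0.0001). Klf4, a zinc-finger factor that appears in several of the lists, fell, with 95.11, 102, 130.2 and 125.6 units at time 48 and 411.7, 443.2, 243.7 and 241.6 at time 0 (-1.30 ± 0.18, limma adjusted p = 1.4e-06). Eif4ebp1, the translation repressor 4E-BP1, fell (-1.04 ± 0.12), while of 13 p53 targets 3 rose and 4 fell (1 or 2 without replicate 1 or 2 of time 0, or 3 or 4 of time 48), with Btg2, an antiproliferative gene, at 1.27 ± 0.10 and Gadd45a, a DNA damage response gene, at -0.79 ± 0.16.

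Ribosome biogenesis genes fell by small amounts: 20 of 30 tested fell, 0 rose and the median was -0.31; 16 fell in the fit to blocked pair averages, 3 with a random pair effect and 1 in a fit to pair averages without the block. Nop58, a core protein of box C/D snoRNPs, had 607.9, 537.7, 694.9 and 611 units at time 48 and 945, 895.4, 997 and 957.8 at time 0 (-0.61 ± 0.13, limma adjusted p = 0.00055). Myc, the transcription factor that drives ribosome production, had 163.6, 138.9, 227.6 and 210.7 units at time 48 and 275.2, 269.2, 274.9 and 271.8 at time 0. It was lower in all time 48 arrays (-0.51 ± 0.11, limma adjusted p = 0.00085), though it did not pass in replicates 3 and 4 alone.

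Of 30 mitosis genes 11 fell and 0 rose, median -0.29, and of 30 DNA replication genes 8 fell and 0 rose, median -0.19, against 17.6% of all tested genes lower. With a random effect for the array pair, at its estimated correlation of 0.66, 4 mitosis genes and 1 replication gene were lower; with plain pair averages 1 and 0 were, and with blocked pair averages 8 and 6. The counts also rested on single arrays: 6 or 7 mitosis genes were lower without replicate 1 or 2 of time 48 or without replicate 3 or 4 of time 0, and 4 or 5 replication genes without replicate 2 or 4 of time 48 or without replicate 3 or 4 of time 0. Racgap1, a GTPase activator of the midzone in dividing cells, had 380.5, 414.3, 419.4 and 503.7 units at time 48 and 609, 611.6, 721.2 and 794.9 at time 0. The groups did not overlap (-0.63 ± 0.11, limma adjusted p = 8.5e-05). Ccna2, cyclin A2, had 557.1, 576.1, 707.7 and 615 units at time 48 and 853.1, 838.1, 933.4 and 934.9 at time 0 (-0.52 ± 0.11, limma adjusted p = 0.00036). The second probe set of Ccna2, with a mean signal of 706, changed by -0.25. Of the G1 regulators, 2 of 17 rose and 2 fell (1 without replicate 1 or 2 of time 0, or 3 or 4 of time 48). Ccnd2, cyclin D2, fell, with 2203, 2163, 2146 and 1837 units at time 48 and 3608, 3758, 3652 and 3878 at time 0 (-0.83 ± 0.13, limma adjusted p = 8.9e-06), while Ccnd3, cyclin D3, rose (0.65 ± 0.09, limma adjusted p = 5.7e-07). The CHR element TTTGAA, a promoter motif of late cell cycle genes, was on either strand of 21 of 25 mitosis promoters (84%), 17.9% of all promoters and 13.8% of those of tested genes.

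Interferon-induced genes did not move together: of 16 tested, 2 rose and 3 fell, with a median of 0.03. The list has 34 members on the array, and Gbp2b, described above, is outside it. Over all tested genes 11.1% were higher and 17.6% lower. Bst2 was one of the risers. Irf1, a transcription factor of interferon responses, had 887.8, 948.1, 755 and 852 units at time 48 and 542.9, 507.5, 635.5 and 634.2 at time 0 and was the other riser (0.55 ± 0.07, limma adjusted p = 6.4e-07). Irgm1, an immunity-related GTPase, fell (-0.69 ± 0.13), as did Ifi202b, a DNA-binding interferon-inducible gene (-0.90 ± 0.17). The interferon-stimulated response element, searched by its core on both strands, was in 8 of 15 promoters of the list (53.3%), in 3.44% of all promoters and in 3.7% of those of tested genes. The Bst2 promoter holds 2 overlapping matches, shown in capitals at chr8:71537565-71537624 (minus strand), since Bst2 had the highest change of all by the rule for named genes.
Bst2: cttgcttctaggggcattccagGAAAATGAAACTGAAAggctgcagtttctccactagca
Among the other immune genes, B2m, the light chain of MHC class I, was the member of 9 antigen presentation genes that fell (-0.63 ± 0.11, limma adjusted p = 8.5e-05), and of 7 complement genes Masp1, a lectin pathway protease, rose (1.04 ± 0.21) and C1s1 (-0.94 ± 0.17) and C1ra (-0.83 ± 0.16), proteases of the C1 complex, fell. Of 14 chemokines and NF-kB targets 3 rose and 3 fell, and the risers include Lcn2, tested through the arrays in which it is high. Cxcl12, the stromal chemokine that binds CXCR4, had 2744, 2504, 3321 and 3177 units at time 48 and 6102, 6522, 6089 and 6497 at time 0 (-1.10 ± 0.10, limma adjusted p = 1.5e-09). The second probe set of Cxcl12, with a mean signal of 2825, changed by -2.18. Csf1, the macrophage growth factor, fell too, with 1100, 1101, 1147 and 1110 units at time 48 and 2527, 2740, 1998 and 2264 at time 0 (-1.06 ± 0.11, limma adjusted p = 6.3e-09).

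Metabolic and stress genes showed further changes of single members. Of 15 aryl hydrocarbon receptor and xenobiotic genes 7 rose and 3 fell, median 0.44, with 4 that rose under a random pair effect and 2 with plain pair averages. The risers include Ephx2, which was tested through the later wild type arrays in which it is high. Aldh1a1, a retinaldehyde dehydrogenase, had 1743, 1689, 2630 and 2062 units at time 48 and 691.9, 657.9, 655.5 and 686.8 at time 0 (1.53 ± 0.11, limma adjusted p = 5.6e-12). Cbr2, a carbonyl reductase, fell (-1.14 ± 0.18). Of 23 NRF2 targets 4 rose (2 without replicate 1 or 2 of time 0, or 1 or 3 of time 48) and 10 fell (6 with a random pair effect and 3 with pair averages), median -0.23, with Txnrd1, thioredoxin reductase, at 519.3, 459.7, 593.6 and 549.4 units at time 48 and 805.7, 843.6, 921.7 and 872.1 at time 0 (-0.67 ± 0.09, limma adjusted p = 1.9e-06). Of 11 iron genes 4 rose and 0 fell, and the risers include Lcn2, tested through the arrays in which it is high. Fth1, the heavy chain of the iron store ferritin, had 15580, 13790, 19340 and 18840 units at time 48 and 10350, 9974, 12570 and 12310 at time 0 (0.57 ± 0.09, limma adjusted p = 1.1e-05), and Scara5, a ferritin receptor, rose too (1.40 ± 0.12).

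Glycolysis and hypoxia genes fell in 11 of 23 tested members, or in 7 without replicate 1 or 2 of time 0 or replicate 4 of time 48, and rose in 1; the median was -0.27, with Pfkp, a phosphofructokinase, at -0.94 ± 0.15 and Aldoa, aldolase A, at -0.65 ± 0.15. Endoplasmic reticulum chaperones fell in 10 of 23, or in 6 without replicate 2 of time 48 or replicate 3 of time 0, and rose in 0, median -0.19; Herpud1, of protein degradation at the reticulum, had 469.8, 431.3, 467.3 and 467.9 units at time 48 and 765.7, 769.4, 705.2 and 719.5 at time 0 (-0.65 ± 0.09, limma adjusted p = 8.3e-07). Of 17 cytosolic heat shock genes 1 rose and 5 fell. The riser was Hspb1, a small heat shock protein that binds actin, with 9437, 9019, 11320 and 10700 units at time 48 and 4071, 4641, 5165 and 5540 at time 0 (1.06 ± 0.11, limma adjusted p = 6.3e-09). Lysosomal genes were split, 5 up and 7 down of 30, against 11.1% of all tested genes higher and 17.6% lower. Man2b1, lysosomal alpha-mannosidase, was at 0.87 ± 0.09. With a random pair effect 3 glycolysis genes and 4 chaperones fell, and with plain pair averages 1 and 2. Oxidative phosphorylation subunits were near the median of all genes, at -0.02, with 1 of 39 higher and 5 lower (3 without replicate 2 of time 48, and 0 with a random pair effect or plain pair averages).

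Among signalling genes, Bmp4, a bone morphogenetic protein, had 823.9, 819.1, 803.5 and 703.7 units at time 48 and 1804, 1780, 1924 and 1939 at time 0, well apart (-1.21 ± 0.22, limma adjusted p = 6.9e-05). Ltbp2, a microfibril protein related to TGF-beta binding proteins, fell (-1.50 ± 0.27), and Id1, a BMP target, rose (0.57 ± 0.10); in all 5 of 24 TGF-beta and BMP genes rose and 4 fell. In the Wnt list 3 of 21 rose and 1 fell, against 11.1% of all tested genes higher and 17.6% lower. Lgr5, a receptor of R-spondins (1.20 ± 0.19), Axin2, a feedback inhibitor (0.84 ± 0.10), and Fzd1, a frizzled receptor (0.70 ± 0.12), rose. Ccn4, a matricellular Wnt target, fell (-1.08 ± 0.10). Kdr had 1506, 1495, 1116 and 1529 units at time 48 and 435.5, 445.9, 413.3 and 401 at time 0 (1.65 ± 0.15, limma adjusted p = 4.3e-10), and was one of 4 of 20 receptor kinases that rose, with 4 that fell (2 without replicate 3 or 4 of time 48).

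In the IGF list, 3 of 17 rose and 2 fell. Igfbp6, an IGF-II binding protein, had 3793, 3438, 4475 and 3769 units at time 48 and 1177, 1297, 2238 and 2367 at time 0 (1.18 ± 0.19, limma adjusted p = 1.2e-05). Igf1, the growth factor itself, had 3781, 3413, 734.9 and 587.6 units at time 48 and 785.3, 716.7, 608.2 and 563.2 at time 0. Its groups overlapped, with replicates 1 and 2 of time 48 far above the rest (1.19 ± 0.44, limma adjusted p = 0.041). The change was 2.21 in replicates 1 and 2 alone and 0.159 in replicates 3 and 4 alone, and with blocked pair averages the adjusted p was 0.057. Leaving out any one of the 4 time 0 arrays or replicate 1 or 2 of time 48 ended the call, with changes of 0.762 to 1.26. Of 27 immediate early genes 8 rose and 7 fell, median 0.11. Fos, an AP-1 subunit, had 380, 341.4, 462 and 363.4 units at time 48 and 172.1, 188.4, 186.9 and 187 at time 0 (0.95 ± 0.09, limma adjusted p = 1.3e-09).

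Circadian genes other than Per1 included Hlf, a PAR bZIP factor (0.89 ± 0.08), and Nr1d2, the repressor REV-ERB beta, which had 163.2, 130, 101.8 and 101 units at time 48 and 321.5, 323.9, 348.2 and 314 at time 0 (-1.22 ± 0.18, limma adjusted p = 4.4e-06); 4 of 12 rose (2 without replicate 1 or 2 of time 48) and 2 fell. Of 15 adipogenic regulators and adipocyte markers 3 rose and 3 fell, median -0.04. Dlk1, a surface inhibitor of adipocyte formation, fell (-0.96 ± 0.19), and Cebpd, an early regulator, rose (0.84 ± 0.21), with replicates 3 and 4 at time 0 already at the level of replicates 1 and 2 at time 48.

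The course before time 48 differed between the lists, in comparisons that share the wild type time 0 arrays. Time 2 has replicates 1 and 2 only, so its values are differences from the time 0 arrays of those replicates, while the later times are set against all 4. They are given without a test. The median of the glucocorticoid targets was 1.37 at time 2, 1.08 at time 6, 1.13 at time 24 and 1.11 at time 48. That of the ATF4 list was -0.18, -0.31, -0.87 and -0.91 at the same times, and that of the contractile genes -0.08, -0.56, -0.63 and -0.55. Per1 stood at 2.07 over time 0 at time 2, Trib3 at -1.48 at time 2 and -1.36 at time 6, and Bst2 at 0.20, 0.87 and 2.46 at times 2, 6 and 24. Tnc was at 0.58 and 0.03 at times 2 and 6 and at -1.94 at time 24.

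**Figure D4:**
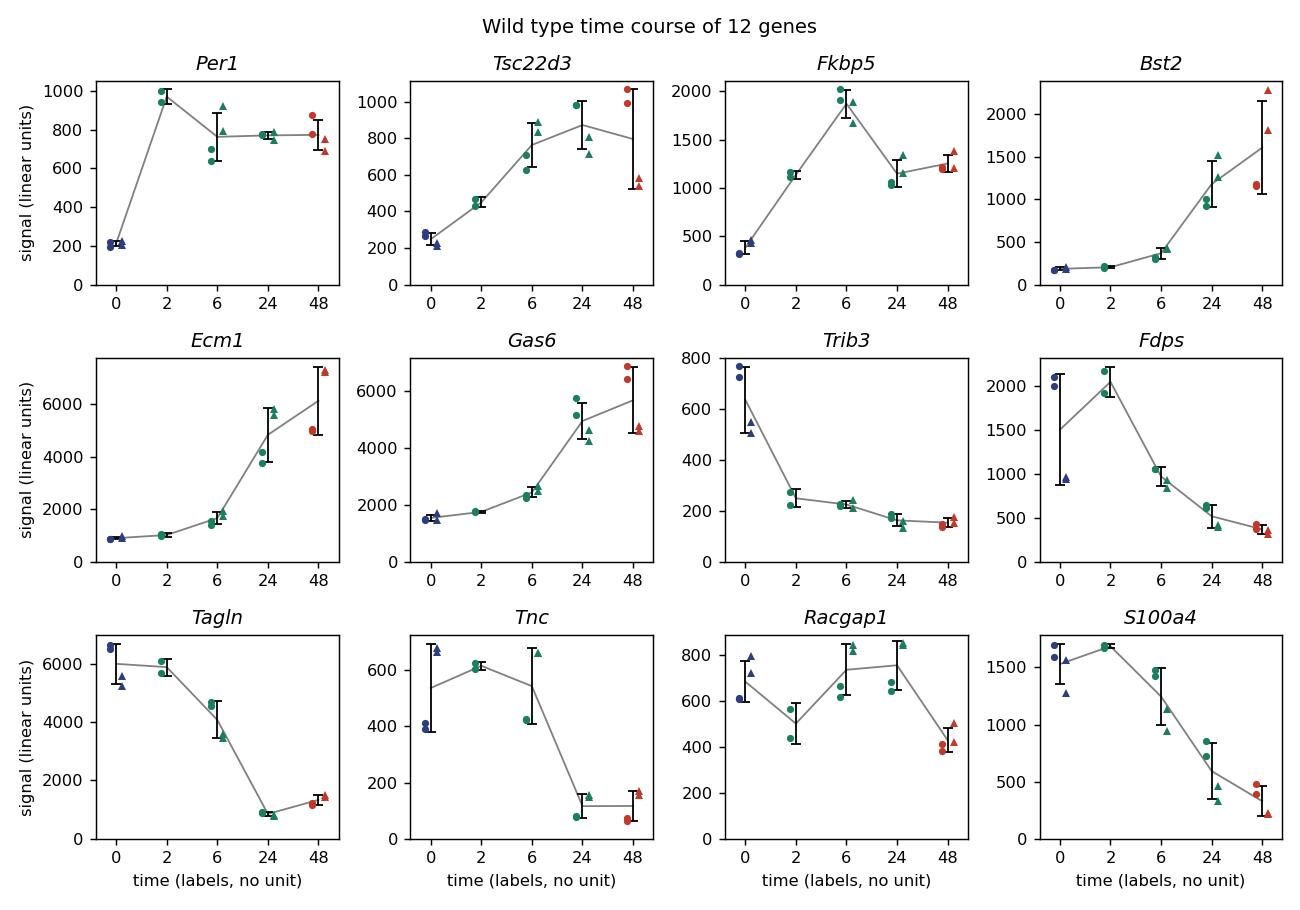
Signal (linear units) of 12 genes in wild type arrays at each labelled time, with 2 arrays (replicates 1 and 2) at time 2 and 4 at the others; circles are replicates 1 and 2, triangles 3 and 4, the line joins means, bars are SD, and times are drawn at even steps. Per1 and Fkbp5 are up at time 2 and stay up, Bst2, Ecm1 and Gas6 climb late, Trib3 drops by time 2, and Racgap1 is lower at time 48 than at time 24.

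Between time 24 and time 48 few genes changed: 46 of 7436 (0.619%) were higher and 81 (1.09%) lower at time 48, and with blocked pair averages 19 (0.256%) and 39 (0.524%). With the replicate number as a block, 267 passed, and with plain pair averages 0 passed, though 241 had an unadjusted p under 0.05. Of the mitosis genes, 21 of 30 were lower at time 48 than at time 24 (10 with blocked pair averages), with a median of -0.54, and their median at time 24 minus time 0 was 0.26. Ccnb2, cyclin B2, had 363.3, 330.3, 394.7 and 309.8 units at time 48 and a mean of 768.1 ± 80.2 (SD, n = 4) at time 24 (-1.07 ± 0.14, limma adjusted p = 3e-05), and 367.2, 393.7, 551 and 484 units at time 0. It was thus about as high at time 48 as in replicates 1 and 2 of time 0, and the change from time 0 did not pass (-0.32, adjusted p = 0.087). Mki67, the proliferation marker Ki-67, had 346.4, 295.8, 262.3 and 208.2 units at time 48 and 501.6 ± 31.8 (SD, n = 4) at time 24 (-0.80 ± 0.14, limma adjusted p = 0.00098).

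Genes that were higher at time 48 than at time 24 included Dusp6, a phosphatase of ERK, with 454.2, 395.6, 393.2 and 342.9 units at time 48 and 188.8 ± 28.4 (SD, n = 4) at time 24 (0.96 ± 0.11, limma adjusted p = 4.8e-06). Cryab, the small heat shock protein alpha-B-crystallin, rose again after time 24 (0.84 ± 0.11, limma adjusted p = 2.8e-05) and stayed under its time 0 level (-0.63). The basement membrane gene Nid2 was higher at time 48 than at either time (0.72 ± 0.11 over time 24 and 0.73 over time 0). Ephx2 had a mean of 775.6 ± 59.8 units (SD, n = 4) at time 24 and fell by 1.32 on the log2 scale to time 48. Ephx2 was tested through these later wild type arrays in which it is high, and this change too is a description. Vcan fell by 0.83 from time 24 to time 48 (limma adjusted p = 0.00068).

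In PKBa-/- cells 1065 genes (14.3%) were higher and 1117 (15.0%) lower at time 48 than at time 0. The test of the difference, the PKBa-/- change minus the wild type change, which shares the wild type arrays, passed for 645 genes (8.67%) with a higher and 419 (5.63%) with a lower change in PKBa-/- cells, and with blocked pair averages for 528 (7.10%) and 302 (4.06%). The higher share was 60.6% as deposited and 49.7% after quantile normalization. At time 0 the genotypes already differed in the 5 tested mesothelial markers. Wild type and PKBa-/- arrays averaged 5395 and 56.59 units for Upk3b, 1825 and 66.88 for Gata6, and 1164 and 61.15 for Podxl. For Gpm6a they averaged 898 and 15.38, and for Wt1 786.3 and 40.06. The part of this in the differences of change was not tested. Mitosis genes differed between the genotypes: in PKBa-/- cells 21 of 30 rose and 0 fell, with a median of 0.42, against -0.29 in wild type cells, and 25 of 30 had a higher change in PKBa-/- cells by the test of the difference. DNA replication genes had medians of 0.46 in PKBa-/- and -0.19 in wild type cells, with 23 of 30 different, all toward a higher change in PKBa-/- cells. Ribosome biogenesis genes had medians of 0.13 in PKBa-/- and -0.31 in wild type cells, with 13 of 30 different in that direction. Mki67 changed by 0.48 in PKBa-/- and -0.61 in wild type cells (difference 1.09 ± 0.20, limma adjusted p = 0.00017).

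The contractile genes had medians of -0.53 in PKBa-/- and -0.55 in wild type cells. By the test of the difference 4 members had a higher and 4 a lower change in PKBa-/- cells, or 3 and 1 with blocked pair averages. The glucocorticoid targets had medians of 0.84 in PKBa-/- and 1.11 in wild type cells, with 2 higher and 3 lower, or 0 and 3 with blocked pair averages. The ATF4 list had medians of -0.41 in PKBa-/- and -0.91 in wild type cells, with 13 of 33 members higher in the difference, or 8 with blocked pair averages. Matrix glycoproteins had medians of 0.28 in PKBa-/- and -0.07 in wild type cells, with 11 of 33 higher and 1 lower. Adipogenic genes had medians of 0.51 in PKBa-/- and -0.04 in wild type cells, with 6 of 15 higher and 0 lower, and collagen genes 0.07 in PKBa-/- and -0.15 in wild type cells, with 6 of 28 higher and 2 lower (9 and 3 with blocked pair averages). For Per1 the difference was -0.16 and did not pass (limma adjusted p = 0.38), and for Tagln 0.14 (0.6). Other members of these 2 lists did differ. Among the 4 contractile genes with a higher change were Acta2 (1.01, limma adjusted p = 7.5e-06) and Tagln2 (1.02, limma adjusted p = 4.8e-05). Among the 3 glucocorticoid targets with a lower change was Lcn2 (-2.13). Its PKBa-/- arrays lay under the signal limit on average at both times, so this difference is a description.

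Several genes that rose in wild type cells fell in PKBa-/- cells. Bst2 averaged 84.81 ± 14 units at time 48 and 189.9 ± 10.4 at time 0 in PKBa-/- arrays (SD, n = 4 each), a change opposite to that in wild type cells (-0.93 in PKBa-/-, 2.86 in wild type; difference -3.79 ± 0.21, limma adjusted p = 3.3e-14). Gbp2b likewise averaged 67.96 ± 7.68 at time 48 and 193.9 ± 35.8 at time 0 in PKBa-/- arrays (SD, n = 4 each). It averaged 114.7 units over all PKBa-/- arrays, under the signal limit of about 123, and 213.3 over all wild type arrays. Gbp2b was thus tested through the wild type arrays in which it is high, and its difference of -3.09 is a description. Cav1 averaged 628.7 ± 65.9 at time 48 and 1651 ± 119 at time 0 in PKBa-/- arrays (SD, n = 4 each), a fall where wild type cells had a rise (difference -2.29 ± 0.17, limma adjusted p = 7.9e-12). Fhl1, a LIM domain protein of muscle, fell in PKBa-/- cells (-2.31) and had a change of 0.30 in wild type cells that did not pass (difference -2.61 ± 0.19, limma adjusted p = 7.9e-12).

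Dpt, Ifitm1 and Klhl13 rose in PKBa-/- cells and did not pass in wild type cells. Dpt, the matrix protein dermatopontin, averaged 4761 ± 179 units at time 48 and 1047 ± 107 at time 0 in PKBa-/- arrays (SD, n = 4 each) and read 47.06 to 71.83 at time 48 and 49.55 to 73.43 at time 0 in wild type arrays. All its wild type arrays, the brightest at 73.43, lay under the signal limit of about 123, so it was tested only through the PKBa-/- arrays in which it is high, and its difference of 2.21 is a description. Ifitm1, an interferon-induced membrane protein, averaged 1079 ± 102 at time 48 and 190.4 ± 18.8 at time 0 in PKBa-/- arrays (SD, n = 4 each), against a wild type change of 0.07. Its wild type arrays averaged 110.8 units and also lay under the limit on average, and the difference of 2.25 is likewise a description. Klhl13, a substrate adaptor of a cullin ubiquitin ligase, had changes of 2.48 in PKBa-/- and 0.06 in wild type cells. Hs6st1, a heparan sulfate 6-O-sulfotransferase, fell in PKBa-/- cells (-1.29, limma adjusted p = 1.4e-13) and rose in wild type cells (0.49, limma adjusted p = 3.8e-05). These genes were named for the small p-values of their difference.

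**Figure D5:**
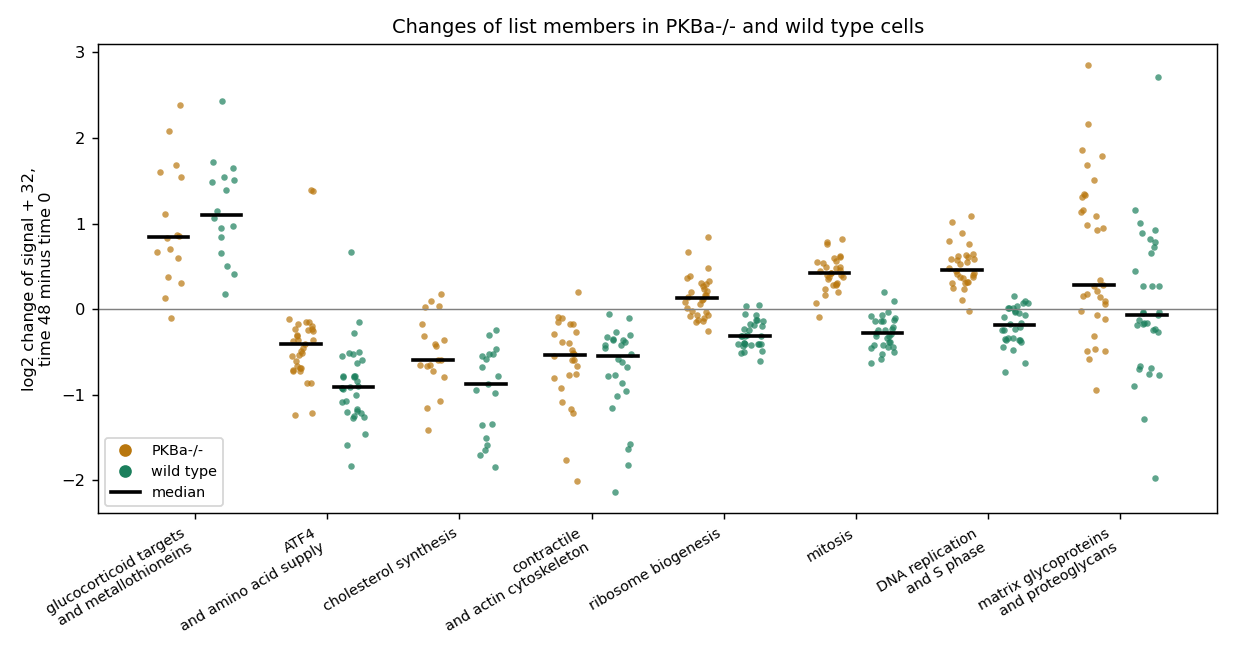
Log2 change of signal + 32, time 48 minus time 0, of the tested members of 8 gene lists, PKBa-/- cells (orange, left) and wild type cells (green, right), with the median as a bar. Mitosis and DNA replication genes lie mostly above 0 in PKBa-/- cells and mostly below 0 in wild type cells, while contractile genes lie mostly below 0 in both.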

How the data were processed

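Total RNA was turned into biotinylated cRNA and hybridized to arrays, per the labels. The deposited table holds 1 linear intensity per probe set and array; the authors' summary and normalization steps are not given in the sources used here. Of 22690 probe sets the 20380 with 1 gene were used, each gene on its brightest. Values were log2(signal + 32) without further normalization, and the 40% dimmest genes (signal under about 123) were not tested. A linear model of 10 group means was fitted to 36 arrays with limma 3.58.1 (R 4.3.3) (26 residual and 5.4 prior degrees of freedom), with Benjamini-Hochberg adjustment within each contrast. The number of arrays limits the precision.

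Same-numbered wild type arrays at times 48 and 0 had residual correlations of 0.508 to 0.663, and those of the same pair but another number 0.36 to 0.606; the labels do not say what a number marks. The fit to blocked pair averages was added after the data were seen. Groups, gene lists and the rule for named genes (12 highest and 12 lowest changes of equal sign in both replicate pairs, up to 6 members a list, 8 highest and lowest against time 24, 8 smallest p-values of the genotype difference) were chosen with earlier results of these data known. The procedure was also run on simulated data with known changes. The outcome is not given here, so that run is no support for the calls. Alternatives were other offsets, filters, normalization, probe set rules, weights, blocks and left-out arrays.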

Additional observations from a re-analysis of the deposited data

Results flagged for a closer look

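Of 404 groups of 4 arrays, 12 (2.97%) held 1 array whose gap to its nearest neighbour, over the group's range, passed Dixon's critical value. Chance gives about 1 in 20 for independent arrays. The arrays here stood in pairs, so that rate does not apply to them. Replicate 4 of time 48 stood apart for Vcam1 (0.853), Fhl1 (0.835), Ccnd2 (0.855), Bmp4 (0.841) and Fkbp5 (0.884), and replicate 3 of time 48 for Cadm4 (0.912), Dusp1 (0.926) and Kdr (0.927). Replicate 2 of time 48 did so for Herpud1 (0.937), replicate 4 of time 0 for Gas6 (0.867) and Chac1 (0.855), and replicate 1 of time 0 for Fos (0.911).

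Values of the test of the difference, the PKBa-/- change minus the wild type change, are given for 22 genes. Of 24 genes chosen for the highest or lowest wild type change, which itself enters the difference, 16 differed, against 1064 of 7436 (14.3%) of all genes tested. The other 6 were chosen for the small p of the same difference and were bound to differ, so neither count is support for a difference. Genes with a lower change in PKBa-/- cells were Bst2 (-3.79), Gbp2b (-3.09), Fhl1 (-2.61), Ecm1 (-2.37), Cav1 (-2.29), Lcn2 (-2.13), Tmem119 (-1.96), Fmo2 (-1.79), Hs6st1 (-1.78), Ephx2 (-1.72), Pnp (-0.94) and Sesn1 (-0.77). Genes with a higher change in PKBa-/- cells were Klhl13 (2.42), Ifitm1 (2.25), Dpt (2.21), S100a4 (2.13), Eno3 (1.19), Tnc (1.02), Acta2 (1.01), Hmgcs1 (0.91), Niban1 (0.78) and Trib3 (0.59). The 6 are Fhl1, Klhl13, Dpt, Hs6st1, Ifitm1 and Cav1. Dpt and Ifitm1 were under the signal limit on average in wild type arrays. Lcn2 and Ephx2 were under it on average in PKBa-/- arrays at times 0 and 48, and their differences are descriptions.

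Outside the genes tested, 479 genes below the signal limit passed when no limit was set.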

How the results depend on the processing

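For wild type time 48 minus time 0, 2128 genes passed, against 3386 with array weights (whose fit stopped before convergence), 1286 with only the groups compared, 3281 with the replicate set as a block, 447 with pair averages, 753 with a random pair effect, 3422 in replicates 1 and 2 alone and 1724 to 2093 with 1 array left out. With the replicate number as a block, 2698 passed. For time 48 minus time 24, 127 passed, against 81 with 60% of genes not tested, 194 after quantile normalization, 701 with array weights, 13 with only the groups compared, 267 with the replicate number as a block, 700 with the replicate set as a block, 58 with blocked pair averages, 0 with pair averages, 11 with a random pair effect, 1297 in replicates 1 and 2 alone, 526 in replicates 3 and 4 alone and 75 to 128 with 1 array left out; 82 passed without replicate 1 of time 48, and 80 and 75 without replicates 3 and 4 of time 24. For the genotype difference, 1064 passed, against 2193 with array weights, 2095 with the replicate set as a block, 1557 with the replicate number as a block, 85 with pair averages, 305 with a random pair effect, 2125 in replicates 1 and 2 alone and 874 to 1062 with 1 array left out. Clock changed sign with the mean of all probe sets (-0.0826). The cause of these differences was not tested. Of 211 named results, 107 no longer passed with pair averages, 50 with a random pair effect, 44 with only the groups compared, 22 in replicates 3 and 4 alone and 12 with blocked pair averages; the block by replicate number changed no call among them.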

Other observations

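Among 4957 genes below the signal limit, 479 passed with no filter on dim genes, 324 higher and 155 lower at time 48, and 223 passed with blocked pair averages. A change of 2-fold or more was seen upward for 12 and downward for 12. Several belong to groups described in the report and were picked after their values were seen. Cnn1, the smooth muscle calponin, had 79.78, 77.69, 99.92 and 91.54 units at time 48 and 411.7, 403, 324.5 and 292.2 at time 0, with no overlap (-1.70 ± 0.09, limma adjusted p = 1.1e-14). Gbp2, a guanylate-binding protein gene close to Gbp2b, had 363.9, 378.7, 398 and 416 units at time 48 and 84.28, 74.88, 103.2 and 96.25 at time 0 (1.80 ± 0.12, limma adjusted p = 3.6e-12). Probe sets of such related genes may read each other's transcripts, which was not tested.

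Aldh1a7, an aldehyde dehydrogenase related to Aldh1a1, had 328.7, 145.3, 476.5 and 306.7 units at time 48 and 49.24, 46.09, 50.27 and 51.88 at time 0 (1.99 ± 0.22, limma adjusted p = 4.9e-08). Sult1a1, a sulfotransferase of phenols, rose evenly across arrays (1.29 ± 0.11, limma adjusted p = 2.6e-10). Mtm1, the phosphoinositide phosphatase myotubularin, fell (-1.71 ± 0.12, limma adjusted p = 6.5e-12). Pdk4, a kinase that inhibits pyruvate dehydrogenase, had 666.7, 561.3, 76.81 and 62.16 units at time 48 and 87.77, 89.94, 44 and 44.03 at time 0. Its groups overlapped, and the change was 2.41 in replicates 1 and 2 and 0.41 in replicates 3 and 4.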
